A study of Mus musculus with 9 samples.

Results

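The genes described here are 38 genes of the cell division cycle, chosen by name and function: cyclins and their kinases, kinase inhibitors, replication factors, mitotic regulators and the transcription factors Myc, E2f1 and Foxm1. Each gene was read from the brightest probe set that carries its symbol alone, which gave values for 37 of the 38, among 18193 genes in all; Ccnb1 was not analysed here. The cells were fat cells grown in dishes from the stromal-vascular fraction, the cells of inguinal fat other than mature adipocytes, of male C57BL6 mice aged 30 to 35 days. On day 8 of differentiation 3 samples received PTH(1-34) and 3 received PTHrP(1-34), each at 100 ng/ml for 4 h, and 3 were controls (the sources used here do not say what these received); RNA was hybridised to Affymetrix mouse arrays. PTH is parathyroid hormone, PTHrP is the protein named for its likeness to it, and the fragments given here, their amino-terminal ends, bind 1 shared receptor. All groups had been through the same induction with dexamethasone, insulin, isobutylmethylxanthine and rosiglitazone. The replicates are called biological, but their origin in separate mice or dishes is left unstated, so p-values measure only the spread between these samples.

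A cell enters the division cycle when cyclin D with Cdk4 or Cdk6, and then cyclin E with Cdk2, phosphorylate the retinoblastoma proteins and release E2F factors, which switch on the genes of DNA replication. Later, cyclin A and cyclin B with Cdk1 drive mitosis, whose genes are switched on by B-Myb and FOXM1 through promoter elements called CHR. In cultured preadipocytes the hormone cocktail can set off a few rounds of division before the cells leave the cycle and fill with lipid, and inhibitors such as p21, p27 and p18 keep mature fat cells out of it.

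Median signals of the 9 arrays lay between 48.2 and 52.6 intensity units, and 3 arrays per group limit the precision of every value. Adipocyte markers were bright in controls, with a mean signal of 13618 for Adipoq and 17944 for Fabp4, and 0 of 8 were below 29.0, the 40th percentile of all probe sets, called the dim level here. Markers of fibroblasts and preadipocytes were present too (0 of 10 dim), as were those of smooth muscle and pericytes (0 of 7 dim), so the cultures were not adipocytes alone. Markers were below the dim level in 6 of 7 for lymphocytes, 5 of 6 for epithelium, 5 of 8 for endothelium and 4 of 10 for macrophages.

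Transcripts of the division cycle gave signals in the control cultures, including some made mainly by dividing cells. The dim level is not a detection call, and division itself was not measured. All 37 genes had control means above the dim level, while 29.4% of all genes were below it. Control signals were 788 ± 29.4 (SD, n = 3) for Mki67, the proliferation antigen Ki-67, 1239 ± 62.2 for Top2a, the topoisomerase that untangles chromosomes, and 2157 ± 56.9 for Cdk1, the mitotic kinase. The lowest control means were those of Tyms (48.8 ± 3.32), the thymidylate synthase gene, and Foxm1 (70.6 ± 4.36). Signals of different probe sets depend on their probes and give no order of abundance between genes.

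The cell cycle genes changed little within 4 h of either peptide. With PTH, 0 of 37 rose, 1 fell and 36 did not pass the test (limma, adjusted p under 0.05), and the counts with PTHrP were the same. Of all genes, 2.94% rose and 3.12% fell with PTH, and 2.53% rose and 3.02% fell with PTHrP. The members called are 2.70% in each comparison, where in either direction 6.06% of all genes passed with PTH and 5.56% with PTHrP, or 8.27% and 7.52% of the 12824 genes whose mean over all arrays was above the dim level. Without adjustment, p was below 0.05 for 5 of the 37 with PTH and for 8 with PTHrP, and for 3451 and 3326 of the 18193 genes. With both peptides against control, 0 rose and 3 fell (Mcm6, Ccnb2 and Cdkn2c), or 8.11%, where 8.39% of all genes passed and 4.57% fell. The 95% intervals of the 37 changes reached from -0.52 to 0.30 on the log2 scale with PTH, and from -0.58 to 0.31 with PTHrP. The largest fall that any of these intervals holds is thus 1.49-fold (Ccnb2 with PTHrP), and the largest rise 1.24-fold (Tyms with PTHrP). Changes here and in what follows are log2 changes of signal + 16. The median change over the 37 was -0.06 with PTH and -0.09 with PTHrP, against medians over all genes of -0.0026 and -0.0049. Lower means than in controls were found for 24 of 37 with PTH and 23 with PTHrP, or 64.9% and 62.2%, where 50.6% and 51.4% of all genes were lower. The 2 peptides were compared with the same 3 controls, so their values are not independent of each other.

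**Figure D1:**
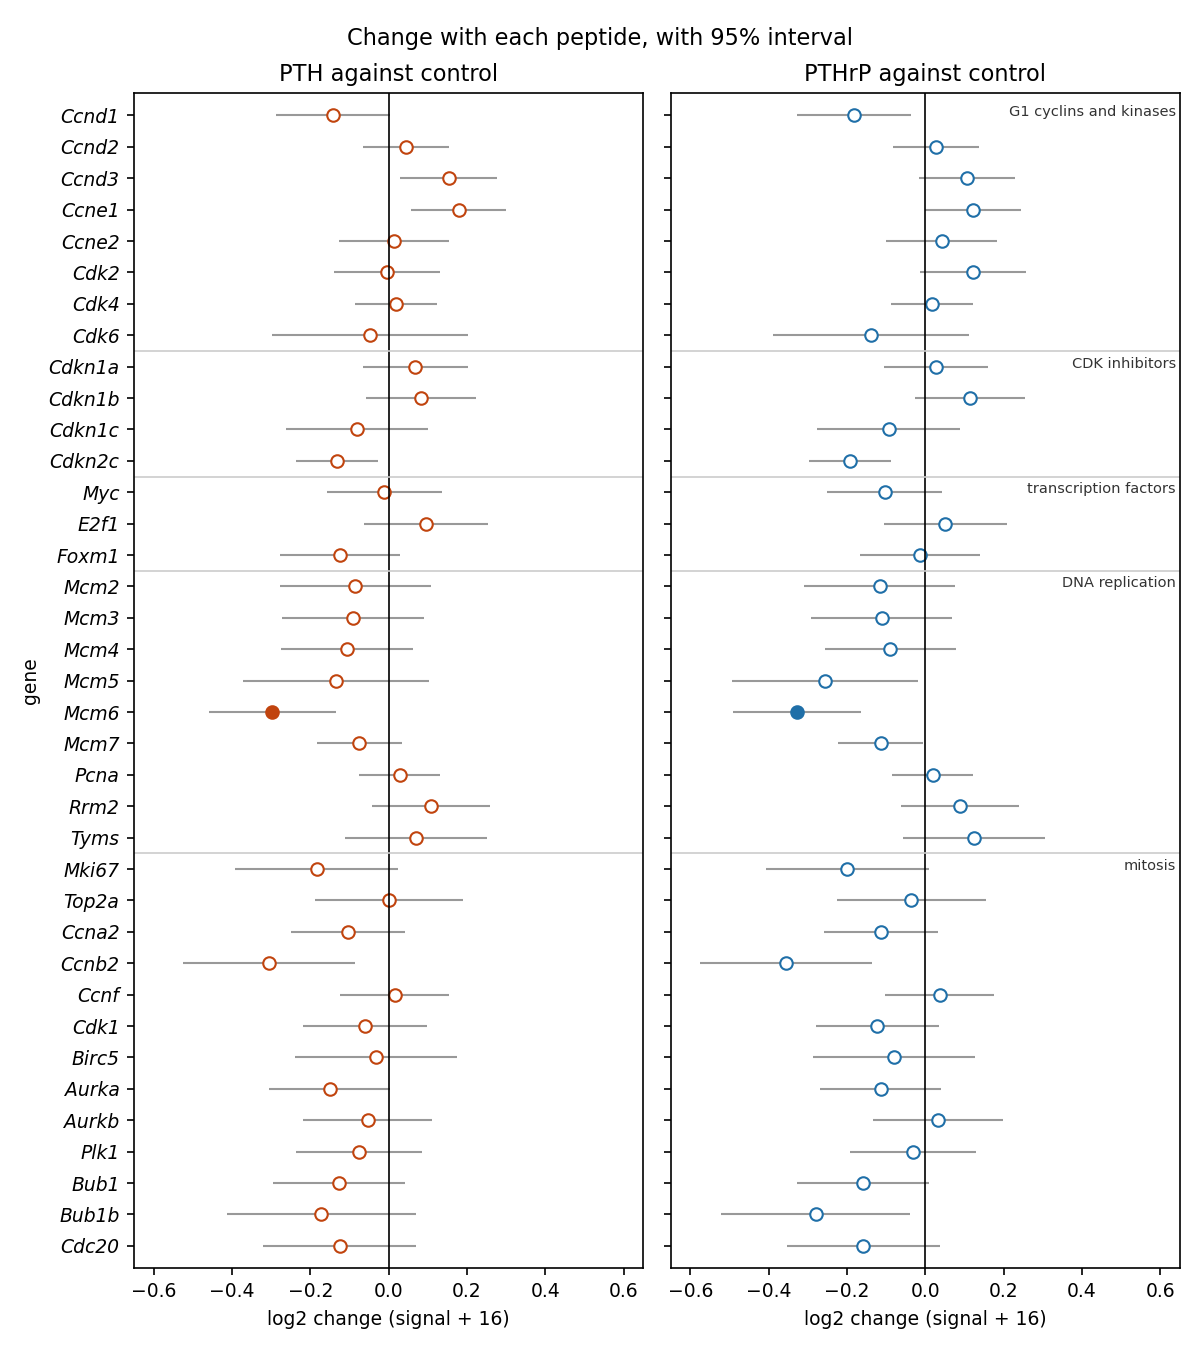
Log2 change of signal + 16 (horizontal axis) for each of 37 cell cycle genes (vertical axis, grouped by role) with PTH (left) and PTHrP (right) against control; lines are 95% intervals and filled circles mark an adjusted p below 0.05. Mcm6 is the single filled circle in each panel, at -0.30 and -0.33, and most replication and mitotic genes lie left of 0.

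Among the genes of DNA replication, Mcm6 fell with both peptides. It codes for a subunit of the MCM2-7 helicase, which unwinds DNA at origins. Its signal was 767, 910 and 918 in the 3 controls, 703, 696 and 697 with PTH, and 663, 692 and 697 with PTHrP. Every treated array lay below every control, and control replicate 1 lay closest to the treated arrays. The log2 change was -0.30 with PTH (SE 0.07, adjusted p = 0.0476, limma) and -0.33 with PTHrP (SE 0.07, adjusted p = 0.0357), so that it fell by 18.6% and by 20.3%. Of the 9 ways to leave out 1 array, only the one without control replicate 1 kept either call (adjusted p = 0.00845 with PTH and 0.00693 with PTHrP). In the others the adjusted p rose as far as 0.146 and 0.123, while the change stayed between -0.38 and -0.25 with PTH and between -0.41 and -0.28 with PTHrP. The call was also lost with the mean of the probe sets of Mcm6 (-0.18 with PTH, adjusted p = 0.312, and -0.20 with PTHrP, adjusted p = 0.264), in fits of only the groups compared (0.105 and 0.121), with a replicate block and, with PTH, under each of the 3 other scalings and with pseudocount 1. Of its 2 other probe sets, 1 had changes of -0.18 and -0.24 and the last was below the dim level.

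The other subunits of the helicase lay on the same side without passing the test. The changes with PTH and PTHrP were -0.09 and -0.12 for Mcm2, -0.09 and -0.11 for Mcm3, -0.11 and -0.09 for Mcm4, -0.13 and -0.26 for Mcm5, and -0.07 and -0.11 for Mcm7, with adjusted p between 0.234 (Mcm5 with PTHrP) and 0.676 (Mcm2 with PTH). Mcm7 was the only one of these 5 whose treated arrays all lay below the controls, at 926, 934 and 913 in controls, 888, 857 and 886 with PTH and 811, 875 and 875 with PTHrP. A dimmer probe set of Mcm2, with a control mean of 161, fell by 0.39 with PTH (adjusted p = 0.0398 over the 34945 probe sets with 1 symbol), while the brighter one, used here, did not pass. The rest of the replication genes had small positive changes. They were 0.03 and 0.02 for Pcna, the sliding clamp of DNA polymerase, 0.11 and 0.09 for Rrm2, the subunit of ribonucleotide reductase made in S phase, and 0.07 and 0.12 for Tyms, which makes thymidylate. Pcna had one of the narrowest intervals, from -0.08 to 0.13 with PTH. The median over the 9 replication genes was -0.09 with PTH and -0.11 with PTHrP, with 6 of 9 lower in each. It was -0.05 and -0.04 without control replicate 2, -0.06 with PTHrP without PTHrP replicate 1, and 6 of 9 were again lower in these sets.

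The Mcm6 promoter is shown because Mcm6 was the only gene of the 37 called with each peptide. The sequence runs from 250 bases before the RefSeq start to 30 bases after it, at chr1:128359676-128359955 on the minus strand of GRCm38.p6, 5′ to 3′, with matches to E2F and CCAAT motifs in capitals.
Mcm6: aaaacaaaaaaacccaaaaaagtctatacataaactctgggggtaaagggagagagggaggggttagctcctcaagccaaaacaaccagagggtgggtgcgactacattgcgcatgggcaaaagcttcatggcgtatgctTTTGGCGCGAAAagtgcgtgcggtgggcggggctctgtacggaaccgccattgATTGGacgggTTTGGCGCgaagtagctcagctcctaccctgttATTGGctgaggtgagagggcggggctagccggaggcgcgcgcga
The E2F letters TTTGGCGC begin 110 and 47 bases before the start, and a match on the other strand overlaps the first of them. CCAAT, read as ATTGG on this strand, begins 57 and 14 bases before the start. Promoters were found in the table for 28 of the 37 genes, 32 sequences in all. An E2F motif (TTTCCCGC, TTTGGCGC or TTTCGCGC, both strands) was present in 1.73% of all 32851 promoters of this length and in those of Mcm3, Mcm5, Mcm6, Mcm7, Cdk1 and Cdk2, that is, in 4 of the 8 replication genes with a sequence. The cAMP response element TGACGTCA was present in 1.74% of all promoters and, among these genes, in that of Mcm5. Its 5-base part TGACG was present in 19.9% of all promoters and in 40.6% of the 32. CACGTG, the E-box that Myc binds, was in 6.79% and 9.38%.

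Among the 13 mitotic genes 0 passed limma's test with a single peptide, and Ccnb2 passed with both peptides together. An unadjusted p below 0.05 was found for 1 with PTH and 2 with PTHrP, against 3451 and 3326 of all 18193 genes. Ccnb2 codes for cyclin B2, a partner of Cdk1. Its signal was 871, 932 and 1114 in controls, 812, 740 and 790 with PTH, and 712, 817 and 733 with PTHrP. All 6 treated arrays lay below all 3 controls, as did those of 8.10% of all genes, and the controls spread more widely than the treated arrays did. The change was -0.30 with PTH (SE 0.10, adjusted p = 0.120, limma), -0.36 with PTHrP (adjusted p = 0.0782) and -0.33 with both (SE 0.08, adjusted p = 0.0472). The call with both peptides was lost on leaving out any 1 array other than control replicate 1 or PTHrP replicate 2, with adjusted p up to 0.122. With both peptides together Mcm6 (-0.31, adjusted p = 0.0178) lost its call without control replicate 2 or 3 only, with adjusted p up to 0.0784.

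The Ccnb2 promoter is shown since it carries the arrangement of CCAAT boxes and CHR known from mitotic genes. It lies at chr9:70421525-70421804 on the minus strand of GRCm38.p6, printed over the same window, with CCAAT and CHR matches in capitals.
Ccnb2: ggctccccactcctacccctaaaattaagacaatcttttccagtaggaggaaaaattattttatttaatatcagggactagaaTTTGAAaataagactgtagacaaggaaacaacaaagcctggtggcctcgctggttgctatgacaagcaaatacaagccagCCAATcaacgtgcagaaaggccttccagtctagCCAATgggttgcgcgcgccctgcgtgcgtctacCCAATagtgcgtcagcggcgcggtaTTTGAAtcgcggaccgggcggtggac
CCAAT begins 87, 54 and 21 bases before the start, and the CHR letters TTTGAA begin at base 5 after it, with a further match 167 bases before it. A CHR motif (TTTGAA or TTCGAA, both strands) was present in 18.4% of all promoters and in 8 of the 11 mitotic genes with a sequence (Bub1, Bub1b, Ccnb2, Ccnf, Cdc20, Cdk1, Mki67 and Top2a). CCAAT was in 36.1% of all promoters and in 10 of these 11. The other gene called with both peptides, Cdkn2c, has 2 starts in the table, and of all these motifs only 1 CCAAT, 8 bases into the second, was found in either.

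The remaining mitotic genes had changes of up to -0.28, none of which passed. Mki67 was at 754, 805 and 805 in controls, 781, 622 and 682 with PTH, and 623, 716 and 717 with PTHrP. PTH replicate 1 lay within the control range and the other treated arrays below it, and the changes were -0.18 (95% interval -0.39 to 0.03) and -0.20 (-0.41 to 0.0095), with adjusted p = 0.330 and 0.299. Top2a had changes of 0.0011 and -0.04, with intervals of -0.19 to 0.19 and -0.23 to 0.15. Bub1b, which codes for the spindle checkpoint protein BubR1, had changes of -0.17 and -0.28 (adjusted p = 0.444 and 0.200), and the kinase gene Bub1 changes of -0.13 and -0.16. Cdc20, the activator of the anaphase-promoting complex, had -0.12 and -0.16. Cyclin A2 (Ccna2) had -0.10 and -0.11, and Cdk1 had -0.06 and -0.12. The kinases Aurka (-0.15 and -0.11), Aurkb (-0.05 and 0.03) and Plk1 (-0.07 and -0.03) did not pass, nor did the survivin gene Birc5 (-0.03 and -0.08) or the cyclin F gene Ccnf (0.02 and 0.04). In each comparison 11 of the 13 mitotic genes were lower than in controls, with a median of -0.10 with PTH and -0.11 with PTHrP.

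**Figure D2:**
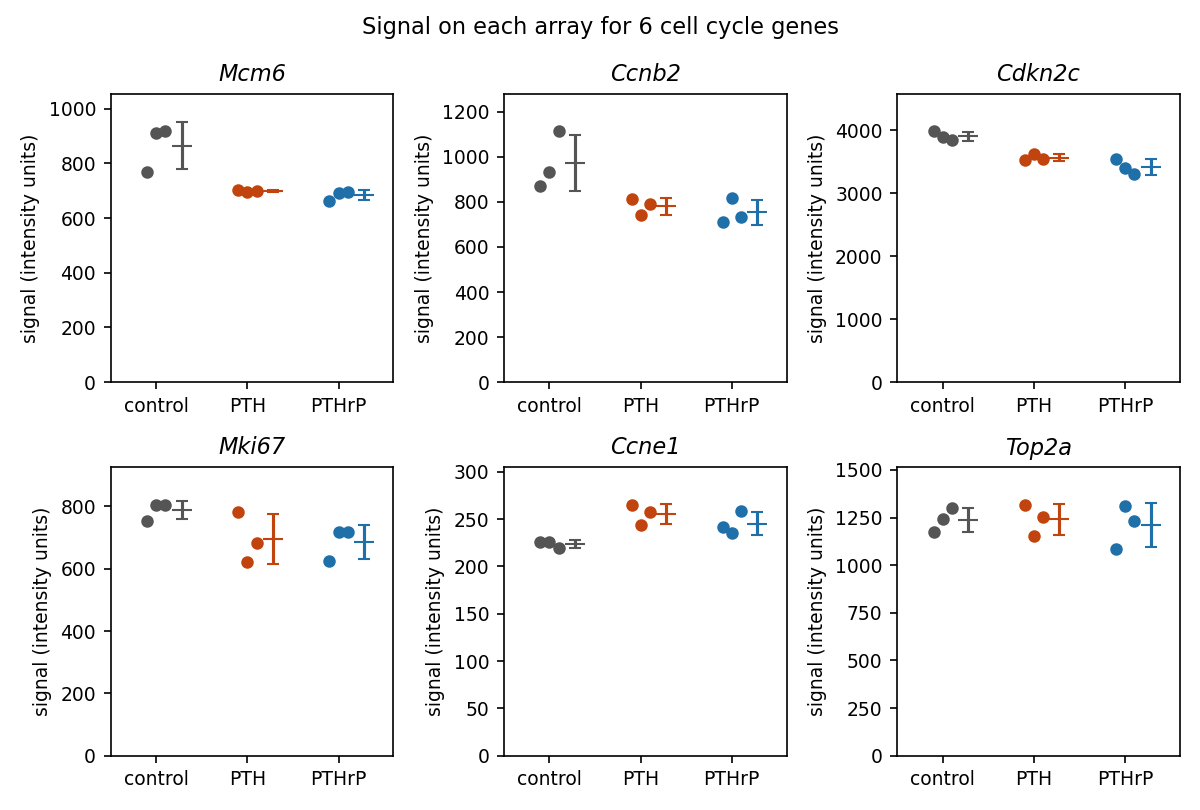
Signal in intensity units (vertical axis, from 0) of 6 genes on each of 9 arrays (points) in controls, PTH and PTHrP, with the mean and SD of each group (n = 3) beside the points. Treated arrays lie below all controls for Mcm6, Ccnb2 and Cdkn2c and above all controls for Ccne1, while those of Top2a overlap with controls.

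The mitotic genes tended to lie to the same side of their group means on an array, with median deviations of up to -0.12, where the median changes with treatment were -0.10 and -0.11. On PTHrP replicate 1, 12 of the 13 lay below the mean of their own group, with a median deviation of -0.12 on the log2 scale. On PTH replicate 2 all 13 lay below it (median -0.07), and on PTH replicate 1, 12 of 13 lay above it (median 0.06). In the controls, 11 of 13 were below the group mean on replicate 1 (median -0.06). The replication genes did so too: 9 of 9 were above the group mean on control replicate 2 (median 0.08) and on PTHrP replicate 3 (0.06), and 8 of 9 below it on control replicate 3 (-0.08). Over all genes above the dim level the median deviation was between -0.02 and 0.01 on the 9 arrays. Without PTHrP replicate 1 the median mitotic change with PTHrP was -0.06 and 9 of 13 were lower. Without PTH replicate 2 the median with PTH was -0.06 and 10 of 13 were lower. Leaving out control replicate 1, or PTH replicate 1 in the PTH comparison, moved the changes of most mitotic genes downward instead. Over all 37 genes the median with PTH was -0.0097 without control replicate 2, and that with PTHrP was -0.03 without control replicate 2 or PTHrP replicate 1.

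**Figure D3:**
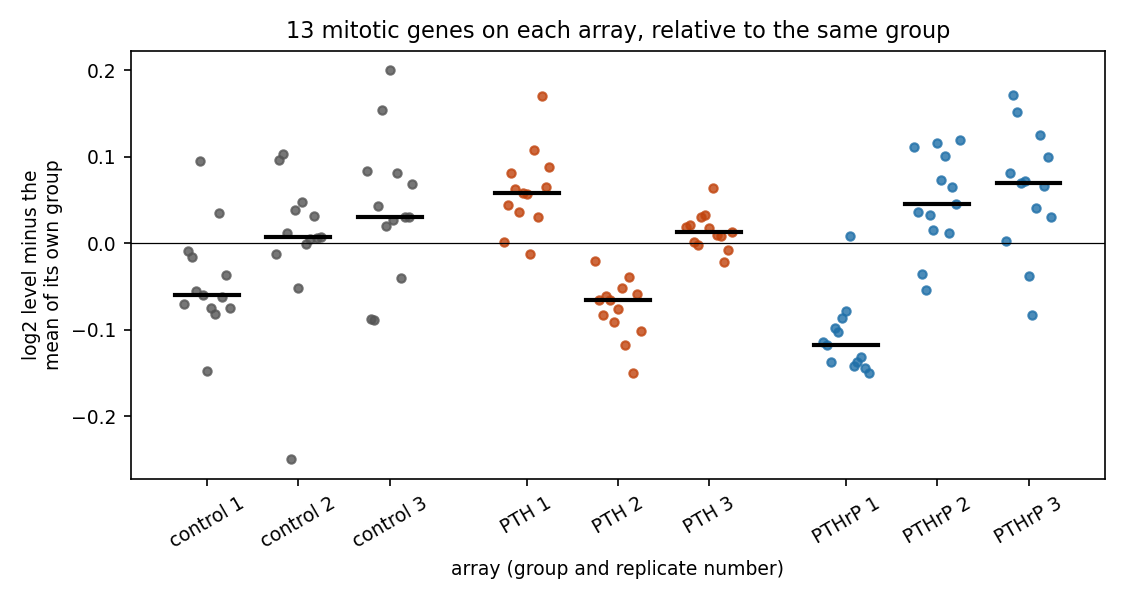
Log2 level of each of 13 mitotic genes (points) minus the mean of that gene in its own group (vertical axis), on each array (horizontal axis); black bars are medians. The points of an array lie mostly on 1 side of 0, with medians of -0.12 on PTHrP replicate 1 and -0.07 on PTH replicate 2.

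Other signals moved with the treatment as well; the markers named were chosen after their values were seen. Pdgfrb, a receptor of fibroblasts and pericytes, fell with both peptides (-0.31 and -0.35, adjusted p = 0.0111 and 0.00719, limma), as did Myh11, the smooth muscle myosin (-0.38 and -0.45, adjusted p = 0.0227 and 0.0109), the only 1 of 7 smooth muscle and pericyte markers that passed; the pericyte markers Rgs5 (0.23 and 0.21) and Cspg4 (0.05 and 0.11) were above 0 and did not pass. The adipocyte marker Cidec, a lipid droplet protein, rose (0.28 and 0.31, adjusted p = 0.0375 and 0.0304, limma). It was the only 1 of 8 adipocyte markers that passed, where 6.06% of all genes passed with PTH and 5.56% with PTHrP. The median change of those 8 was 0.05 with PTH and -0.0038 with PTHrP. Their summed signal was 64067 to 66806 in controls, 65791 to 69527 with PTH and 63701 to 67514 with PTHrP, so the groups overlapped. Of the 10 fibroblast and preadipocyte markers, 2 fell with PTH and 1 with PTHrP, where 3.12% and 3.02% of all genes fell. Beside Pdgfrb, the one that fell with PTH was Lum, at 1372 in controls and 1059 with PTH. With each peptide 8 of these 10 markers had a negative change and 2 a positive one. Their summed signal was 52867 to 54030 in controls, 51257 to 52184 with PTH and 49781 to 53564 with PTHrP. The summed signal of the 7 smooth muscle and pericyte markers was 22129 to 22733 in controls, 21041 to 21282 with PTH and 20072 to 21288 with PTHrP, so that all treated arrays were below all controls. Acta2 and Tagln, with control means of 12821 and 7392, made up most of that sum. Of all genes taken singly, 8.10% had all treated arrays below all controls. The 3′ to 5′ signal ratio of actin, which reflects how intact the RNA was, was 1.45 to 1.51 in controls, 1.59 to 1.65 with PTH and 1.52 to 1.61 with PTHrP. The part of these differences in the lower cell cycle signals was not tested. Fewer cycling cells and less RNA per cycling cell cannot be told apart in such bulk samples.

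Of the 8 cyclins and kinases of G1, 0 passed limma's test with either peptide, and 2 with each had an unadjusted p below 0.05, a count to be read against the 3451 and 3326 of all 18193 genes. Ccne1, cyclin E1, had the largest positive change of the 37 with PTH. It was at 226, 226 and 219 in controls, 265, 244 and 258 with PTH, and 242, 235 and 258 with PTHrP, with every treated array above every control. The change was 0.18 with PTH (SE 0.05, adjusted p = 0.0982, limma) and 0.12 with PTHrP (adjusted p = 0.272), and it passed with PTH when the dimmest 40% of genes were left out. The other Ccne1 probe set, with a control mean of 204, had changes of 0.12 and 0.10 (limma, adjusted p = 0.423 and 0.535 over all probe sets with 1 symbol). There PTHrP replicate 1, at 201, lay within the control range. Ccnd3, cyclin D3, was at 1047, 1030 and 1014 in controls, 1107, 1183 and 1153 with PTH, and 1052, 1173 and 1108 with PTHrP. These treated arrays again lay above the controls, with changes of 0.15 and 0.11 (adjusted p = 0.162 and 0.354).

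Cyclin D1 lay on the other side. Ccnd1 was at 1372, 1539 and 1542 in controls, 1421, 1318 and 1290 with PTH, and 1267, 1334 and 1315 with PTHrP. All PTHrP arrays were below the controls, while PTH replicate 1 was above control replicate 1, and the changes were -0.14 and -0.18 (adjusted p = 0.276 and 0.164). Its other 2 probe sets had changes of -0.22 and -0.20 with PTH and -0.26 and -0.20 with PTHrP. Cyclin D2 (Ccnd2, 0.05 and 0.03), cyclin E2 (Ccne2, 0.01 and 0.04), Cdk4 (0.02 and 0.02) and Cdk6 (-0.05 and -0.14) did not pass either. A dimmer Ccnd2 probe set, with a control mean of 361, had changes of 0.19 and 0.23. It passed with both peptides together (0.21, adjusted p = 0.0477, limma, over the 34945 probe sets with 1 symbol). Of the 7 Ccnd2 probe sets, 4 lay below control with PTH and 3 with PTHrP. Cdk2, the partner of cyclin E, had a change of -0.0044 with PTH and 0.12 with PTHrP (adjusted p = 0.332). The medians of the 8 genes were 0.02 and 0.03, on the other side of 0 from the replication and mitotic groups; that difference between groups of genes was not tested.

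Among the inhibitors of cyclin-dependent kinases, Cdkn2c fell when both peptides were set against control. It codes for p18, an inhibitor of Cdk4 and Cdk6 that rises in fat cell differentiation. Its signal was 3985, 3891 and 3836 in controls, 3527, 3627 and 3539 with PTH, and 3544, 3405 and 3302 with PTHrP. Every treated array was lower than every control. The change was -0.13 with PTH (SE 0.05, adjusted p = 0.160, limma), -0.19 with PTHrP (adjusted p = 0.0503) and -0.16 with both (SE 0.04, adjusted p = 0.0430), so that it fell by 10.6% with both. The call with both peptides was kept without PTHrP replicate 1 (adjusted p = 0.0490) and lost without any other 1 array (up to 0.138). It is the only probe set of this gene with 1 symbol.

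The other inhibitors did not pass. Cdkn1a, coding for p21, a target of p53, was at 2959, 2894 and 2799 in controls, 3020, 3083 and 2972 with PTH and 2811, 3179 and 2843 with PTHrP. The PTH arrays were all above the controls and those with PTHrP overlapped them, with changes of 0.07 and 0.03. Cdkn1b, coding for p27, had changes of 0.08 and 0.11 (adjusted p = 0.551 and 0.391), but its dimmer probe set had -0.25 and -0.23, so the probe sets did not have the same sign. Cdkn1c, coding for p57, had -0.08 and -0.09.

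Of the transcription factors, Myc, an early response gene that drives growth and entry into the cycle, was at 512, 546 and 558 in controls, 505, 542 and 557 with PTH and 505, 529 and 469 with PTHrP. The groups overlapped, and the changes were -0.01 (95% interval -0.16 to 0.14) and -0.10 (-0.25 to 0.04). E2f1 had changes of 0.10 and 0.05, and Foxm1, which drives mitotic genes, -0.12 and -0.01. Another Foxm1 probe set, with a control mean of 75.5, had changes of -0.27 and -0.13 (adjusted p = 0.140 and 0.540 over all probe sets with 1 symbol).

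Counting the genes whose treated arrays all lay on 1 side of all controls gave 6 of 37 below and 3 above with PTH, or 16.2% and 8.11%, where 13.2% and 12.8% of all genes did so. The 6 were Cdkn2c, Mcm6, Mcm7, Ccnb2, Aurka and Bub1, and the 3 were Ccnd3, Ccne1 and Cdkn1a. With PTHrP 6 were below and 2 above, or 16.2% and 5.41%, where 12.0% and 10.4% of all genes were. Those below were Ccnd1, Cdkn2c, Mcm6, Mcm7, Ccnb2 and Mki67. All 6 treated arrays were below the controls for 4 genes (Cdkn2c, Mcm6, Mcm7 and Ccnb2; 10.8%) and above for Ccnd3 and Ccne1 (5.41%), where 8.10% and 7.47% of all genes were. Where a gene has several probe sets above the dim level, they lay all below control with both peptides for 10 genes, all above for 3 (Ccnd3, Ccne1 and Tyms) and on both sides for 12. No like count over all genes is given here, so these numbers only describe where probe sets agree. The 10 with all probe sets below control were Ccnd1, Foxm1, Mcm2, Mcm4, Mcm5, Mcm6, Mcm7, Ccna2, Bub1b and Cdc20. For Ccnf the probe set used had changes of 0.02 and 0.04, and a second of similar brightness had -0.34 and -0.23. The probe sets used ended in x_at for 6 genes (Ccne1, Cdk4, Mcm5, Rrm2, Aurkb and Cdc20), a mark of probes that may also bind other transcripts.

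Between the 2 peptides, at the same dose in ng/ml and the same time, 0 of 37 genes differed (limma, adjusted p of at least 0.999 for each), and without adjustment 0 had a p below 0.05. Over all 18193 genes 0 passed (0%), and 731 had an unadjusted p below 0.05. The 37 differences, PTH minus PTHrP, lay within 95% intervals that reached from -0.26 (Foxm1) to 0.36 (Mcm5), so that differences of up to 1.28-fold are within them. Cdk2 had the largest difference, -0.13 (95% interval -0.26 to 0.0091), with all PTH arrays below all PTHrP arrays, as 3.83% of all genes had; 5.23% had them all above. For Mcm6 the difference was 0.03 (-0.13 to 0.19), for Ccnb2 0.05 (-0.17 to 0.27) and for Cdkn2c 0.06 (-0.04 to 0.17).

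A further 135 measured genes of the cycle, in 5 lists, gave 4 higher and 4 lower with PTH (127 not passing) and 2 higher and 9 lower with PTHrP (124 not passing). Their median changes were -0.05 and -0.07, and 86 and 93 were lower than in controls. Of all genes 2.94% rose and 3.12% fell with PTH, 2.53% rose and 3.02% fell with PTHrP, and 50.6% and 51.4% were lower. Among those that fell were genes of the GADD45 family, stress-induced proteins that bind Cdk1, Pcna and p21. Gadd45g was at 1024, 1174 and 1077 in controls, 729, 790 and 804 with PTH and 755, 760 and 818 with PTHrP, with a gap between the groups. It fell by 0.49 and 0.48 on the log2 scale (adjusted p = 0.00527 and 0.00570, limma), and both calls held on leaving out any 1 array. Gadd45a fell by 0.48 and 0.43 (adjusted p = 0.00728 and 0.0130), and the call with PTHrP was lost without control replicate 2 (0.0514). Gadd45b fell with PTHrP by 0.42 (adjusted p = 0.0358, limma), which only the set without PTHrP replicate 3 kept. The mean of its probe sets gave -0.25 with PTHrP (adjusted p = 0.0774). Gadd45b did not pass with PTH, where its mean signal was 514 against 662 in controls.

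The list of cyclin-kinase regulators and checkpoint genes, which holds that family, had 1 higher and 3 lower with PTH and 1 higher and 5 lower with PTHrP, of 30. Across all genes, 2.94% rose and 3.12% fell with PTH, and 2.53% and 3.02% with PTHrP. Cdkn2b, coding for the Cdk4 inhibitor p15, fell from 1452 ± 9.83 to 1185 ± 56.5 with PTH and to 1174 ± 61.8 with PTHrP (-0.29 and -0.30, adjusted p = 0.0213 and 0.0189, limma). Each call held in 4 of 9 sets with an array left out and was lost without any 1 control. The antiproliferative gene Btg2 fell with PTHrP (-0.31), its relative Tob1 rose with PTHrP (0.21), and the checkpoint kinase gene Atr rose with PTH (0.25). Each call held in at most 1 of 9 sets with an array left out, and the mean of the Atr probe sets gave 0.09. With the other peptide they did not pass, but mean signals lay to the same side. Btg2 went from 706 in controls to 587 with PTH, Tob1 from 3229 to 3653 with PTH, and Atr from 305 to 355 with PTHrP. Between the peptides 0 of the 135 further genes passed.

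Of 31 replication genes outside the 37, 1 rose and 0 fell with PTH, and 1 rose and 3 fell with PTHrP. Across all genes, 2.94% rose and 3.12% fell with PTH, and 2.53% and 3.02% with PTHrP. Cdc7, the kinase that fires origins, rose with both (0.29 and 0.35). The licensing factor gene Cdt1 (-0.30), the primase gene Prim1 (-0.24) and the DNA ligase gene Lig1 (-0.38) fell with PTHrP. These did not pass with PTH, but their mean signals were lower there too. Cdt1 went from 315 in controls to 273 with PTH, Prim1 from 385 to 344 and Lig1 from 359 to 286. With 1 array left out the call of Cdc7 held in 2 of 9 sets with PTH and 3 with PTHrP, and those of Cdt1, Prim1 and Lig1 in 3, 1 and 3. With the mean of its probe sets Cdc7 had changes of 0.12 and 0.14 and did not pass (limma, adjusted p = 0.255 and 0.221). The medians were -0.10 and -0.12, with 24 of 31 lower in each, where 50.6% and 51.4% of all genes were lower. Of 42 mitotic genes, 0 rose and 1 fell with each peptide, the condensin gene Smc4 (-0.22 and -0.23), whose call held in 1 of 9 sets with an array left out with PTH and in 0 of 9 with PTHrP. Their medians were -0.09 and -0.14, and 35 and 36 of 42 were lower, where 50.6% and 51.4% of all genes were. Mitotic genes of the 37 and of this list thus lay to the same side, and they share the arrays described above.

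Of 17 pocket protein, E2F and MuvB genes 0 passed limma's test with either peptide, and for each peptide 1 had an unadjusted p below 0.05. Among all 18193 genes 3451 had such a p with PTH and 3326 with PTHrP. The smallest p with both peptides belonged to E2f3 (0.18, adjusted p = 0.167) and the pocket protein gene Rbl1 (-0.11, adjusted p = 0.198). Of 15 genes of the Myc network, 2 rose with PTH, the Myc antagonist gene Mxi1 (0.20) and the nucleolar gene Fbl (0.22), where 2.94% of all genes rose. With PTHrP 0 passed by limma and 5 had an unadjusted p below 0.05, as did 3326 of all 18193 genes. Both calls with PTH were lost on leaving out any 1 array. The median of this list was 0.09 with PTH and 0.02 with PTHrP.

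**Figure D4:**
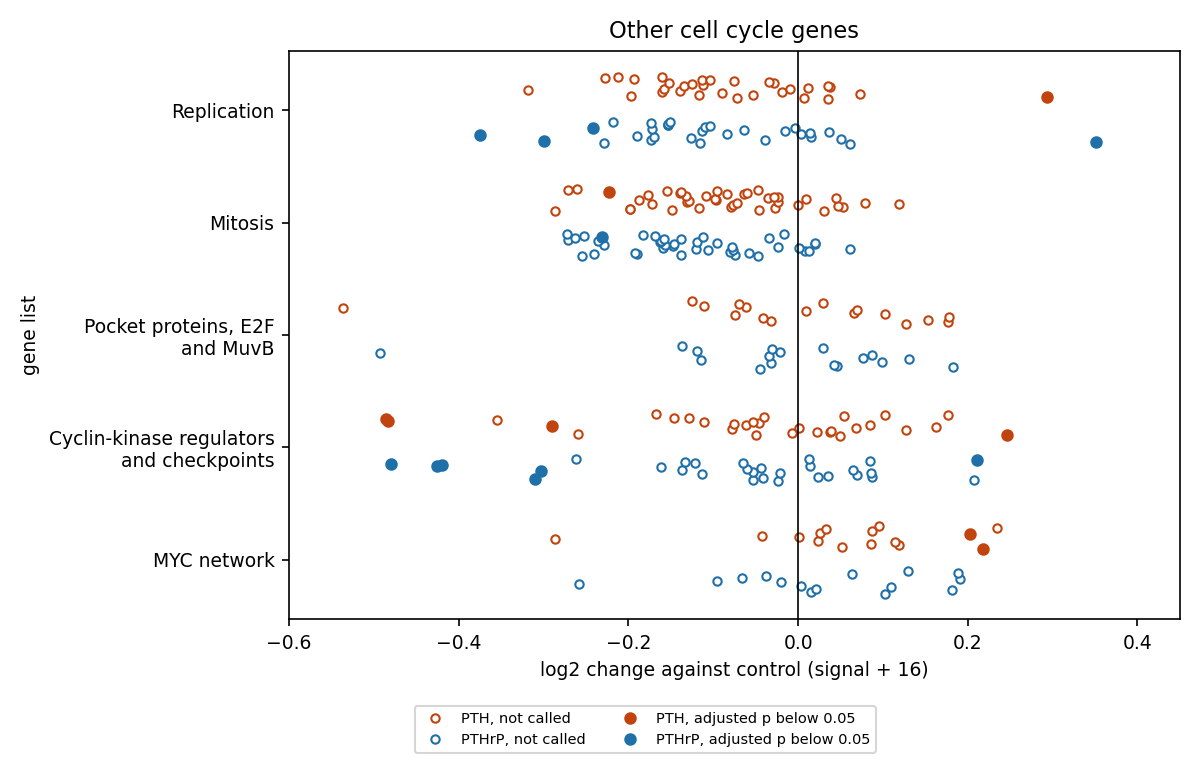
Log2 change of signal + 16 against control (horizontal axis) of 135 further cell cycle genes (points) in 5 lists (vertical axis), for PTH and PTHrP; filled points have an adjusted p below 0.05. Filled points at -0.49 to -0.42 among cyclin-kinase regulators are the Gadd45 genes, and most replication and mitotic genes lie left of 0.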

How the data were processed

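Gene expression was measured on 9 Affymetrix arrays, 3 per group. The values are the intensities of probe sets as deposited; how the authors summarised, corrected and scaled them the sources used here do not say, and their range was read as a linear scale. Of 45101 probe sets, 34945 had 1 gene symbol in the platform's annotation, 932 had several, 9160 had none and 64 were array controls. The brightest probe set per gene by mean log2(intensity + 16) was kept, and older symbols were matched through RefSeq synonyms. Values were fitted as log2(intensity + 16) with limma 3.58.1 in R 4.3.3, with a mean for each group and an empirical Bayes variance over all 9 arrays. The Benjamini-Hochberg adjustment of p-values ran over 18193 genes, with a threshold of 0.05. In simulated data with 200 changed genes, 52% of log2 changes of 0.5 and 82% of changes of 1 were found for PTH. Figures used matplotlib 3.10.9 in Python 3.11.15.

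The members, lists and alternatives were chosen with earlier results of these data known. Named were the 37 genes, and from each further list those called with a peptide, or else the 2 smallest p-values with both. No genome build is named for the arrays, so positions are given only for RefSeq promoters. Alternatives were other scalings, filters, probe set rules, variances, array weights, a replicate block, pseudocounts, thresholds, dim levels, fits of only the groups compared, and leaving out each array.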

Additional observations from a re-analysis of the deposited data

How the results depend on the processing

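Of the 37 cell cycle genes, 1 fell with PTH in the fit reported. That count was 0 with quantile normalization, with either centring, with the mean of probe sets, with pseudocount 1, in fits of only the groups compared, with an adjusted p below 0.01 and with a 1.5-fold minimum, 2 without the dimmest 40% of genes and 3 with trended and robust variance. With PTHrP the count of 1 became 0 with the mean of probe sets, only the groups compared, 0.01 and 1.5-fold, 2 with quantile normalization, 3 without dim genes or with pseudocount 64, and 4 with trended variance. With both peptides the count of 3 became 1 with median centring and 0 with the mean of probe sets, 0.01 or 1.5-fold. Leaving out 1 array gave 0 to 1, 0 to 1 and 0 to 2. Without dim genes 1 gene rose with PTH and 1 with both. Same-numbered replicates did not deviate together (correlations of -0.25 to 0.18), so numbers were not taken as pairs; with a replicate block the members' counts of falls were 0, 0 and 1, and those of the further genes were 0 higher and 3 lower with each peptide. Of the 135 further genes, the 4 higher with PTH became 1 with median centring, mean of probe sets or pseudocount 1, and 0 with only the groups compared, 0.01 or 1.5-fold. The 4 lower became 2 with median centring or 0.01, 7 with array weights, 9 with pseudocount 64, 12 with trended variance, 13 without dim genes and 0 with 1.5-fold. The 2 higher with PTHrP became 4 with quantile or 75th percentile scaling or pseudocount 64, 5 without dim genes, 6 with trended variance, 1 with median centring, array weights or pseudocount 1, and 0 with the mean, only the groups compared, 0.01 or 1.5-fold. The 9 lower became 19 without dim genes, 18 with trended variance, 17 with pseudocount 64, 4 with the mean, 1 with only the groups compared or 0.01, and 0 with 1.5-fold. Leaving out 1 array gave 0 to 2 higher and 2 to 5 lower with PTH, and 0 to 1 and 1 to 5 with PTHrP. The causes were not tested. No member whose change passed in the fit reported or in an alternative had opposite signs in these 2 fits. Sign changes of members that passed in neither were not counted. With the 50th percentile as the dim level 1 gene was dim in controls. Scan dates were not used here.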
